A study of Mus musculus with 4 samples.

Results

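Keratins and the proteins of the desmosome were followed in 2 mouse prostate tumor cell lines, T23 and T1525, and in normal prostate. The set took in every probe whose platform gene symbol was a numbered keratin or 1 of 14 desmosome genes (Dsp, Jup, Pkp1 to Pkp4, Dsg1a, Dsg2, Dsg3, Dsc1 to Dsc3, Ppl and Evpl). This rule reads symbols and no measured value, but it was chosen with earlier results of these data known. It held 68 of the 24613 probes on the array, for 57 genes, of which 45 were keratins and 12 were desmosome genes. Dsp and Ppl were not analysed here.

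Keratins are the intermediate filament proteins of epithelial cells and form obligate pairs of an acidic (type I) and a basic (type II) chain. Simple and glandular epithelia such as the luminal layer of the prostate carry Krt8 with Krt18, together with Krt7 and Krt19, whereas basal cells carry Krt5 with Krt14 and also Krt15. Desmosomes fasten these filaments at the cell border: the cadherins Dsg and Dsc cross the membrane, the armadillo proteins Jup and Pkp bind their tails, and plakins tie the complex to keratin.

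Each line, T23 or T1525, was derived from a prostate tumor of a TRAMP mouse (C57Bl/6, 30 weeks old) and gave 1 array. TRAMP mice express SV40 tumor antigens from a probasin promoter, which is active in prostate epithelium. Normal prostate came from wild-type (WT) C57Bl/6 mice at 18 weeks and gave 2 arrays, called normal 1 and normal 2. Genotype, tumor, age and growth in culture change together with the group and cannot be told apart; no label says if a line is 1 clone or if different mice gave the normal arrays. The p-values below therefore rest on the spread of these arrays alone.

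All levels below are log2 of the deposited, between-array normalized intensity. A probe at or below 6.69 on this scale (an intensity of 103) was taken as not above background, and a gene with a kept probe had 1 probe above that value on at least 1 array. Median intensities of the 4 arrays ran from 105.5 to 106.3. Of the 57 genes, 33 had a kept probe (25 keratins and 8 desmosome genes) and were tested. The other 24, 20 keratins and 4 desmosomal cadherins, lay between 5.60 and 6.69 on every array. Of the 33, T23 had 13 above background and T1525 had 28, against 22 in normal 1 and 24 in normal 2. Among all 10903 tested genes, 8710 lay above background in T23 and 8676 in T1525, against 9063 in normal 1 and 9123 in normal 2. Of the 33 genes, 17 were above background in T1525 and not in T23, beside 9.98% of all genes, and 2 (Krt20 and Krt88, both within 0.06 of the threshold) in T23 and not in T1525, beside 10.3%. These counts hold 7 genes that were kept through T1525 alone (Dsg3, Krt12, Krt16, Krt28, Krt34, Krt82 and Krt90), and Krt20 and Krt88, which were kept through T23 alone. Such a gene had to be higher in the line that kept it, so its difference is given below as a description.

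In T23, limma called 15 of the 33 tested genes lower than normal prostate, beside 14.9% of all genes, and 0 higher, beside 15.5% of all genes (Krt88, kept through T23 alone, was higher at an unadjusted p under 0.05 and was called with limma's trend option). The 15 were 9 keratins (Krt5, Krt7, Krt8, Krt14, Krt15, Krt17, Krt18, Krt19 and Krt23) and 6 desmosome genes (Dsg2, Jup and Pkp1 to Pkp4). In T1525, 7 were called higher, beside 16.5% of all genes, and 4 lower, beside 14.8%. Of the 7, Krt12, Krt16, Krt34 and Krt90 had passed the filter through T1525 alone, and with the threshold passed on at least 2 arrays the calls were Dsg2, Pkp1 and Pkp2, 3 of 24 genes, beside 19.4% of all genes. When T23 and T1525 were taken as 1 class against the normal samples, 2 genes (Krt5 and Krt15) were called lower, beside 6.09% of all genes, and 0 higher, beside 5.30%, with 0 higher at an unadjusted p under 0.05. Without T23 or without T1525 that comparison is the fit of the other line given above, so it adds no check of the line calls. Leaving out normal 1 or normal 2 left 1 normal array, and the class calls of Krt5 and Krt15, like those of every other gene, were lost. Krt5 then differed by -4.50 without normal 1 and -3.06 without normal 2, and Krt15 by -6.17 and -4.85. In position alone, both lines lay below both normal samples for 8 of the 33 genes, beside 28.5% of all genes, and above both for 9, beside 36.3%. Of the 9, all but Krt10 and Krt77 were kept through 1 line alone, so the filter put that line above both normal samples. The median difference from normal prostate over the 33 genes was -1.64 in T23 and 0.61 in T1525, beside 0.08 and 0.09 over all genes. The 33 hold the 7 genes kept through T1525 alone, which the filter made higher there, so the 0.61 is a description. Median scaling moved the all-gene medians to -0.20 and -0.19 and cyclic loess to -0.13 and -0.14. As an alternative, every value under the threshold was raised to it before the fit. Limma then called 0 of the 33 genes lower in T23 (11 at an unadjusted p under 0.05), beside 2.30% of all genes. It called 0 lower in T1525, beside 2.96% of all genes. It called 5 higher in T1525, beside 7.53% of all genes. These were Krt12, Krt16, Krt34, Krt90 and Dsg3, all kept through T1525 alone, without Dsg2, Pkp1 and Pkp2. In that setting the normal samples were equal for 2467 probes, against 7 as measured, and the prior degrees of freedom were 0.485, against 2.95. A line with 1 array was assumed to vary like the normal samples in these fits.

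**Figure D1:**
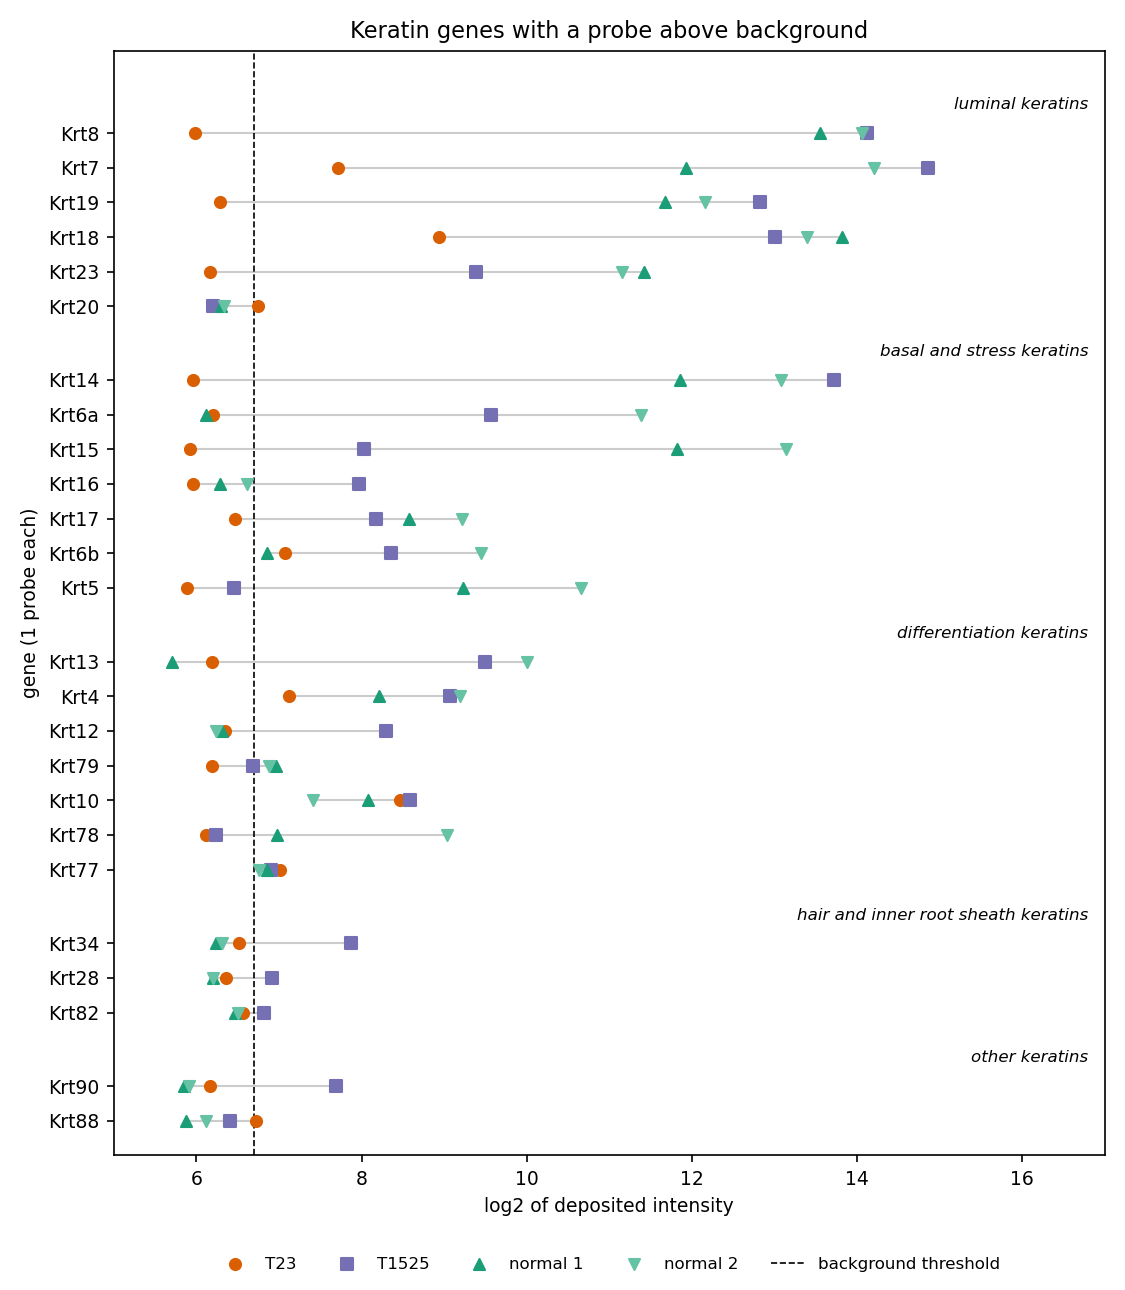
Level of each keratin gene with a kept probe (rows) as log2 of deposited intensity (horizontal axis), with 1 point for each array and the dashed line at the background threshold of 6.69. T23 lies at the left end for Krt8, Krt7, Krt19, Krt18, Krt23 and Krt14, while T1525 lies beside or above the normal samples for Krt8, Krt7, Krt19 and Krt14.

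Of 6 luminal keratins, 5 were called lower in T23, beside 14.9% of all genes, and 1, Krt23, in T1525, beside 14.8%. Krt8, the type II keratin of simple epithelium, read 5.98 in T23 and 14.12 in T1525, against 13.55 in normal 1 and 14.06 in normal 2. T23 alone was not above background, and T1525 lay 0.06 above the higher normal sample. Krt8 was at least 138-fold lower in T23 than in normal prostate (fitted log2 difference -7.82, SE 0.31, limma adjusted p = 0.00507) and differed by 0.32 in T1525 (adjusted p = 0.476). A second Krt8 probe was not above background on any array, between 5.86 and 6.26. Bulk RNA cannot tell fewer cells of a type from less RNA per cell, in normal prostate as in the lines.

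Krt18, the type I partner of Krt8, read 8.94 in T23 and 13.01 in T1525, against 13.82 and 13.40 in normal prostate. It stayed above background in T23, unlike Krt8, and was 25.5-fold lower than normal prostate there (log2 difference -4.67, SE 0.29, limma adjusted p = 0.00622), while T1525 differed by -0.61 (adjusted p = 0.18). Krt19, a type I keratin of glandular ducts, read 6.28 in T23 and 12.82 in T1525, against 11.67 and 12.16 in normal prostate. T23 was at least 37.3-fold lower than normal prostate (limma adjusted p = 0.00583), and T1525 lay above both normal samples without passing the test (0.91, adjusted p = 0.099).

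Krt7, a type II keratin of ducts and transitional epithelium, read 7.72 in T23 and 14.86 in T1525, against 11.93 in normal 1 and 14.21 in normal 2. Its fall in T23 was 40.8-fold (log2 difference -5.35, SE 1.02, limma adjusted p = 0.0317). Leaving out normal 1 gave 90.2-fold, and leaving out normal 2 gave 18.5-fold. That call ended with cyclic loess (adjusted p = 0.0548), with 50 added before the log (adjusted p = 0.0575) and when values under the threshold were raised to it (adjusted p = 0.22). Krt23, a type I keratin, fell in both lines: it read 6.17 in T23 and 9.38 in T1525, against 11.42 and 11.15 in normal prostate. It was at least 24.1-fold lower in T23 (limma adjusted p = 0.0056) and 3.74-fold lower in T1525 (log2 difference -1.90, adjusted p = 0.0154). Krt20, a keratin of gut and bladder umbrella cells, read 6.75 in T23, 6.20 in T1525 and 6.30 and 6.33 in normal prostate, so that it lay at or near background throughout.

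The basal keratins Krt14 and Krt5 differed in T1525: Krt14 was at 13.72 and Krt5 not above background. Krt14, the type I keratin of basal cells, read 5.96 in T23 and 13.72 in T1525, against 11.86 in normal 1 and 13.08 in normal 2. It was at least 54.8-fold lower in T23 than in normal prostate (fitted log2 difference -6.51, SE 0.57, limma adjusted p = 0.00905). The bound became 83.6-fold when normal 1 was left out and 35.9-fold when normal 2 was. T1525 lay above both normal samples, by a fitted 1.25 (adjusted p = 0.174). Krt5, the type II partner of Krt14, read 5.88 in T23 and 6.45 in T1525, against 9.23 and 10.66 in normal prostate, and was not above background in either line. It was at least 9.53-fold lower in each line, with a fitted log2 difference of -4.07 in T23 (SE 0.66, limma adjusted p = 0.0237) and -3.49 in T1525 (adjusted p = 0.0308). That bound became 15.7-fold when normal 1 was left out and 5.79-fold when normal 2 was. With 50 added before the log, neither line kept its call for Krt5 (adjusted p = 0.0527 in T23 and 0.0624 in T1525), and cyclic loess ended it in T1525 (adjusted p = 0.0511).

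Krt15, a type I keratin of basal cells, read 5.92 in T23 and 8.03 in T1525, against 11.82 and 13.14 in normal prostate. Both lines lay below both normal samples: T23 was at least 55.4-fold lower (limma adjusted p = 0.00979) and T1525 was 21.9-fold lower (log2 difference -4.45, adjusted p = 0.017). Leaving out normal 1 gave at least 87.5-fold in T23 and 34.55-fold in T1525, and leaving out normal 2 gave at least 35.1-fold in T23 and 13.8-fold in T1525. Krt17, a type I keratin of basal and injured epithelium, read 6.47 in T23 and 8.18 in T1525, against 8.58 and 9.22 in normal prostate. It was at least 4.61-fold lower in T23 (limma adjusted p = 0.0198) and differed by -0.72 in T1525 (adjusted p = 0.197). Trp63, the transcription factor p63 of basal cells, ran the other way from Krt14 between the lines, at 8.24 in T23 and 6.06 in T1525, against 11.29 and 11.59 in normal prostate. T23 was 9.22-fold lower in Trp63 than normal prostate (limma adjusted p = 0.0081) and T1525 at least 26.9-fold lower (adjusted p = 0.00505).

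The luminal pair Krt8 and Krt18, the basal pair Krt14 and Krt5, and Krt7 are shown by the 200 bases before their start sites, from RefSeq (GRCm38.p6), 5′ to 3′ on the gene's strand. Capitals mark matches on either strand to 5 motifs. The TATA box was searched as TATAAA and the CCAAT box by the letters of its name. The GC box was searched as GGGCGG and the site of the factor AP-1 as TGANTCA. The site of AP-2, a factor of epithelial genes, was searched as GCCNNNGGC.
Krt8, chr15:102004343-102004542, minus strand: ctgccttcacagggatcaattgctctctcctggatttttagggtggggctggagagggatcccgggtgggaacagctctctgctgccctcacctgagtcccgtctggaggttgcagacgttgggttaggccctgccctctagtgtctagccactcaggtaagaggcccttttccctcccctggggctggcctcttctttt
Krt18, chr15:102028016-102028215, plus strand: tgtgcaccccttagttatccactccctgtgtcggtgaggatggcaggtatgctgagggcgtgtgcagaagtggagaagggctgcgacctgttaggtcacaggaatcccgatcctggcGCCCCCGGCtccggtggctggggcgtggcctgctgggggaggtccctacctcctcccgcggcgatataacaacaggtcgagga
Krt7, chr15:101412203-101412402, plus strand: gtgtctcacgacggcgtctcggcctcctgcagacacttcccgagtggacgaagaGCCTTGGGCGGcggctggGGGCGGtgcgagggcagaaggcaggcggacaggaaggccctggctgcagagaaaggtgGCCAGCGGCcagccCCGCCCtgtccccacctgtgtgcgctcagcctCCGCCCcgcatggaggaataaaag
Krt14, chr11:100206031-100206230, minus strand: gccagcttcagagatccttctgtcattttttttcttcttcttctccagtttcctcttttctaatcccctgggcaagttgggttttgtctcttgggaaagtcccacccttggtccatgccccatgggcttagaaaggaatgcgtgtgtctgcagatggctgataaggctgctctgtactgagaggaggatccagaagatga
Krt5, chr15:101712906-101713105, minus strand: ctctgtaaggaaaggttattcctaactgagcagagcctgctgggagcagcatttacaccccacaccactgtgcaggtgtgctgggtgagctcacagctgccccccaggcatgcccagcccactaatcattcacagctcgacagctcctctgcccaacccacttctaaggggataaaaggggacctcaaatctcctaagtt
The Krt8, Krt14 and Krt5 windows held none of these letters. Krt7 held 4 GC boxes and 2 AP-2 matches, of which 1 AP-2 match overlaps a GC box, and Krt18 held 1 AP-2 match. Krt13, also more than 4-fold lower in T23 than in T1525, was, of the keratin and desmosome genes with a window here, the single one with an AP-1 match. Over all 32851 promoter windows of this length, 31% held a GC box, 11.8% an AP-2 match, 29.3% a CCAAT box, 9.96% a TATA box and 5.48% an AP-1 match. A window was given for 33 keratin and desmosome genes, not the same set as the 33 tested, and 12 held a TATA box, 8 of them among the 11 hair and inner root sheath keratins. These matches are descriptions of the letters in each window.

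Of the keratins of activated, stratified and hair epithelium, Krt12, Krt16, Krt34 and Krt90 were above background in T1525 and on no other array. The filter kept them through that array, so their folds are descriptions. Krt16, a type I keratin induced in wounded epidermis, read 5.96 in T23 and 7.97 in T1525, against 6.28 and 6.61 in normal prostate. T1525 was at least 2.43-fold higher than normal prostate. Krt12, a corneal keratin, read 6.34 in T23 and 8.29 in T1525, against 6.31 and 6.24 in normal prostate, at least 3.02-fold higher in T1525, and a second Krt12 probe read 8.24 in T1525. Krt34, a hair keratin, read 6.52 in T23 and 7.87 in T1525, against 6.24 and 6.31 in normal prostate, at least 2.25-fold higher in T1525. Krt90 read 6.17 in T23 and 7.69 in T1525, against 5.85 and 5.91 in normal prostate, at least 1.99-fold higher in T1525. Krt12 was the highest of the 4 in T1525, at 8.29.

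Krt10, the type I keratin of suprabasal epidermis, was above background on every array, at 8.46 in T23 and 8.59 in T1525, against 8.08 and 7.41 in normal prostate. Both lines lay above both normal samples, but the difference did not pass in T23 (0.71, limma adjusted p = 0.209) or in T1525 (0.84, adjusted p = 0.158). Krt1, the type II partner of Krt10, was not above background on any array. Krt4, a type II keratin of stratified mucosa, read 7.12 in T23 and 9.07 in T1525, against 8.21 and 9.19 in normal prostate (limma adjusted p = 0.0792 in T23 and 0.585 in T1525). Krt77 lay between 6.76 and 7.01 on the 4 arrays, close to the threshold. Of 14 hair and inner root sheath keratins with a probe, 3 (Krt28, Krt34 and Krt82) were kept, each above background in T1525 alone.

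**Figure D2:**
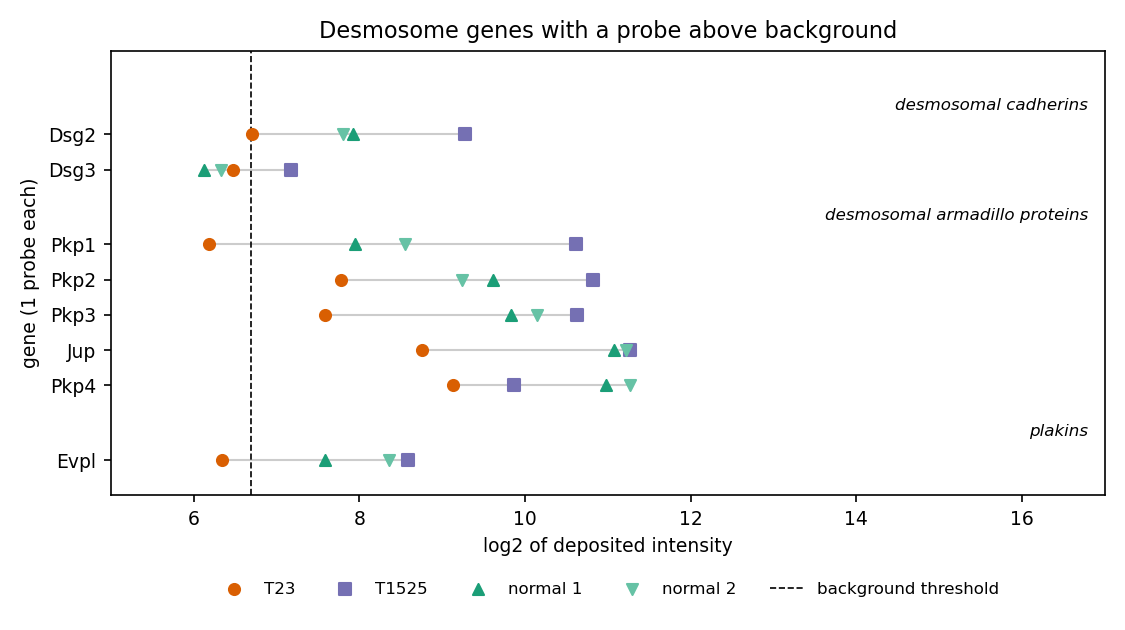
Level of each desmosome gene with a kept probe (rows) as log2 of deposited intensity (horizontal axis), with 1 point for each array and the dashed line at the background threshold of 6.69. T23 is the lowest array for every gene shown except Dsg3, and T1525 is the highest for every gene except Pkp4.

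Among the desmosomal proteins, the armadillo members were called lower in T23 than in normal prostate in 5 of 5 cases, beside 14.9% of all genes. The dimmer probes of Pkp2 and Pkp4, given below, were not called in T23. Jup, plakoglobin, which binds the cadherin tails, read 8.76 in T23 and 11.27 in T1525, against 11.08 and 11.22 in normal prostate. It was 5.23-fold lower in T23 (log2 difference -2.39, SE 0.23, limma adjusted p = 0.00996) and differed by 0.12 in T1525 (adjusted p = 0.706). Pkp3, a plakophilin of most epithelia, read 7.59 in T23 and 10.63 in T1525, against 9.83 and 10.14 in normal prostate, 5.26-fold lower in T23 (limma adjusted p = 0.0119) with a difference of 0.64 in T1525 (adjusted p = 0.135).

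Pkp1, the plakophilin of stratified epithelium, moved in opposite directions in the lines. It read 6.18 in T23 and 10.61 in T1525, against 7.95 and 8.55 in normal prostate. T23 was at least 2.94-fold lower than normal prostate (limma adjusted p = 0.0243) and T1525 stood 5.15-fold above it, by 2.36 on the log2 scale (SE 0.34, adjusted p = 0.0184). Pkp2, the plakophilin of simple epithelium and heart, read 7.78 in T23 and 10.82 in T1525, against 9.61 and 9.24 in normal prostate. It was 3.12-fold lower in T23 (limma adjusted p = 0.0245) and 2.63-fold higher in T1525 (adjusted p = 0.0327). A dimmer Pkp2 probe read 7.39 in T23 and 9.72 in T1525, against 8.81 and 8.08 in normal prostate, the same order of lines, and did not pass (limma adjusted p = 0.115 in T23 and 0.0787 in T1525).

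Pkp4, a plakophilin relative found at several kinds of junction, read 9.13 in T23 and 9.87 in T1525, against 10.98 and 11.27 in normal prostate. It fell in both lines, 3.99-fold in T23 (limma adjusted p = 0.0155) and 2.395-fold in T1525 (adjusted p = 0.0342). Its second probe lay between 6.46 and 7.0 on the 4 arrays, near background, with differences of -0.16 in T23 and 0.38 in T1525, neither called (limma adjusted p = 0.617 and 0.282). Dsg2, the desmoglein of simple epithelium, read 6.71 in T23 and 9.28 in T1525, against 7.92 and 7.80 in normal prostate. It was 2.22-fold lower in T23 (limma adjusted p = 0.0337), where it stood 0.02 above the threshold so that background limits the fold, and 2.68-fold higher in T1525 (adjusted p = 0.0217). A dimmer Dsg2 probe read 6.39 in T23 and 7.0 in T1525, against 6.16 and 6.23 in normal prostate, and was not called in either line (limma adjusted p = 0.517 in T23 and 0.0654 in T1525).

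Dsg3, the desmoglein of basal stratified epithelium, read 6.48 in T23 and 7.17 in T1525, against 6.12 and 6.33 in normal prostate. It was above background in T1525 alone, the array that kept it, at least 1.39-fold higher there than in normal prostate. Evpl, envoplakin, read 6.34 in T23 and 8.59 in T1525, against 7.59 and 8.36 in normal prostate, at least 2.43-fold lower in T23 without passing the test (limma adjusted p = 0.0531). Dsg1a and the desmocollins Dsc1, Dsc2 and Dsc3 were not above background on any array, between 5.62 and 6.69. Of 6 desmosomal cadherin genes, Dsg2 was therefore the single one measured above background in normal prostate. Near the start of Jup, the RefSeq window of 200 bases (GRCm38.p6) held 2 GC boxes and 1 CCAAT box, in capitals here.
Jup, chr11:100397791-100397990, minus strand: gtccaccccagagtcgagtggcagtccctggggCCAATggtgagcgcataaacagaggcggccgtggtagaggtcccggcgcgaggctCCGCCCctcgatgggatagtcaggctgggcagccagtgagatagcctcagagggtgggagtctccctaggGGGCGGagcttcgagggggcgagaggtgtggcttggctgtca

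**Figure D3:**
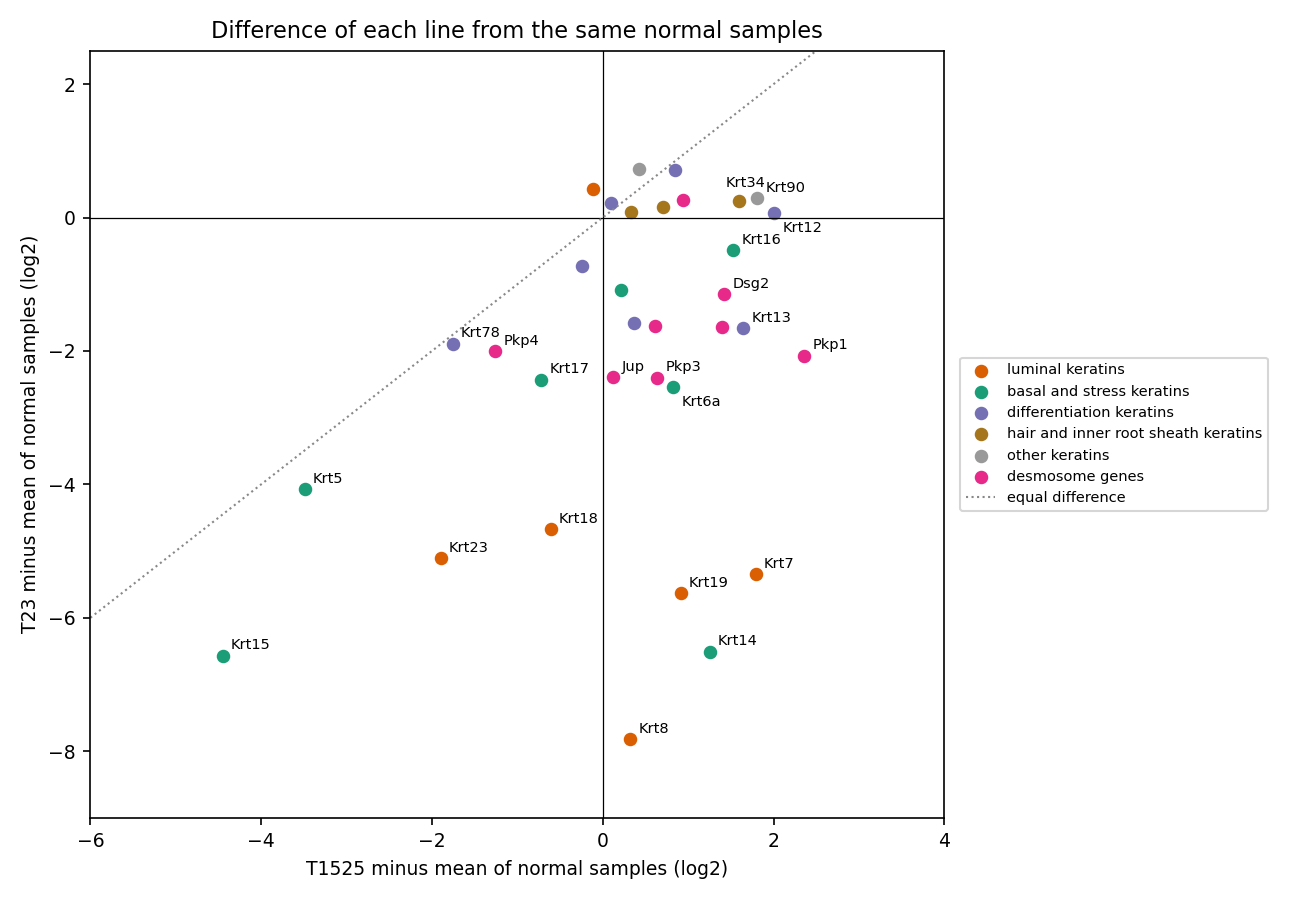
Difference of T23 (vertical axis) and of T1525 (horizontal axis) from the mean of the same 2 normal samples, in log2 units, for the 33 genes with a kept probe, 1 point each, coloured by class. Points fall below the dotted line of equal difference for 30 of the 33 genes, with Krt8, Krt14, Krt7 and Krt19 farthest from it. The 7 genes kept through T1525 alone had to lie below that line.

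Set directly against each other, T23 was below T1525 by at least 2 log2 units (4-fold) in 16 of the 33 genes, beside 3.96% of all genes, and above it by as much in 0, beside 4.62%. With 1 array a line these differences have no replicate check and were not tested. For scale, normal 2 stood above normal 1 by as much in 0.991% of all genes and below it in 0.202%. The 16 genes were Krt8, Krt14, Krt7, Krt19, Pkp1, Krt18, Krt6a, Krt13, Krt23, Pkp2, Pkp3, Dsg2, Jup, Evpl, Krt15 and Krt16, of which Krt16 was kept through T1525 alone. With the dimmest kept probe of each gene the count was 14, without Krt6a and Dsg2, beside 3.43% of all genes. Krt8 was at least 172-fold lower in T23 than in T1525, Krt7 141-fold, Krt14 at least 130.5-fold and Krt19 at least 70.0-fold. Pkp1 was at least 15.1-fold lower, Krt18 16.7-fold and Jup 5.68-fold. Of the 33 genes, 7 were kept through T1525 alone and had to be lower in T23. Over the 33 the median of T23 minus T1525 was -1.95, beside -0.03 over all genes. It was -5.30 for the 6 luminal keratins, -2.02 for 7 basal and stress keratins, -0.49 for 7 differentiation keratins and -3.04 for the 5 armadillo proteins. Krt5, Krt78 and Krt79 lay at background in both lines, and Krt10 and Krt77 differed by -0.13 and 0.11.

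For 10 of the 33 genes T23 lay below both normal samples and T1525 above both, with normal prostate above background, beside 7.03% of all genes. These were Krt7, Krt8, Krt14, Krt19, Jup, Pkp1, Pkp2, Pkp3, Dsg2 and Evpl. The dimmer Dsg2 probe, above background in T1525 alone, did not show this order. The reverse order was seen for 0 of the 33, beside 6.70% of all genes. Both comparisons use the same normal arrays.

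The split ran through both keratin gene clusters. In the RefSeq gene order type I keratins lie together on chromosome 11 and type II keratins, with Krt18 at the end, on chromosome 15. Of the keratins on chromosome 11, 23 had a probe, 12 were kept and 6 were lower in T23 by 4-fold or more. Of those on chromosome 15, 22 had a probe, 13 were kept and 4 were lower, beside 3.96% of all genes tested. On chromosome 11 the neighbours Krt13, Krt15 and Krt19 were all among them, as were Krt14 and Krt16. Krt8 and Krt18 are neighbours on chromosome 15, with T23 minus T1525 at -8.14 and -4.06, whereas Krt78 and Krt79, on the other side of Krt8, differed by -0.13 and -0.49 and lay at background in both lines.

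The normal samples also differed in some keratins. In 5 of the 33 genes normal 2 stood at least 4-fold above normal 1 (Krt6a, Krt13, Krt6b, Krt7 and Krt78), beside 0.991% of all genes. In 0 it stood as far below, beside 0.202%. Krt6a, a type II keratin of activated epithelium, read 11.38 in normal 2 against 6.11 in normal 1, and 6.20 in T23 and 9.57 in T1525. Krt13, a type I keratin of mucosa and bladder epithelium, read 10.00 in normal 2 against 5.70 in normal 1, with 6.19 in T23 and 9.49 in T1525. For both, T1525 lay between the normal samples and the spread of the normal pair was 5.26 and 4.31 log2 units, and no difference from normal prostate passed (limma adjusted p between 0.431 and 0.801). The 2 other Krt6a probes gave the same order of arrays above background, normal 2 above T1525, with smaller differences. They read 7.86 and 7.52 in normal 2, against 6.38 and 6.07 in normal 1. In T1525 they read 7.67 and 7.28, against 6.37 and 6.01 in T23. Neither was 4-fold apart in the normal pair or between the lines. Krt6b read 7.07 in T23 and 8.36 in T1525, against 6.86 in normal 1 and 9.45 in normal 2; Krt6a and Krt6b are closely alike in sequence, and their probes may share signal. Krt78, a type II keratin of stratified epithelium, read 6.11 in T23 and 6.24 in T1525, against 6.98 in normal 1 and 9.03 in normal 2 (limma adjusted p = 0.191 in T23 and 0.215 in T1525).

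Markers of urothelium, the lining of bladder and urethra, differed between the same normal samples. Of 5 uroplakin genes listed, 3 had a kept probe. Upk2 read 12.07 in normal 2 against 10.18 in normal 1, Upk3b 10.38 against 8.35 and Upk3a 8.84 against 7.11, and their summed intensity was 6085 in normal 2 against 1625 in normal 1. It was 185 in T23, where 0 of the 3 were above background, and 296 in T1525, where Upk2 alone was, at 7.01. Ivl, involucrin of stratified epithelium, read 11.11 in normal 2 against 7.20 in normal 1. Of 5 leukocyte markers, 4 were higher in normal 2 and Cd52 was not (13.15 in normal 2 against 13.36 in normal 1), with a summed intensity of 43640 in normal 2 against 18400 in normal 1. All 4 endothelial markers were higher in normal 2, led by Vwf at 11.90 in normal 2 against 9.99 in normal 1, with sums of 9732 in normal 2 against 4042 in normal 1. Krt8, Krt18 and Krt19 differed by at most 0.52 between the normal samples. The part of these cell types in the keratin levels was not tested.

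**Figure D4:**
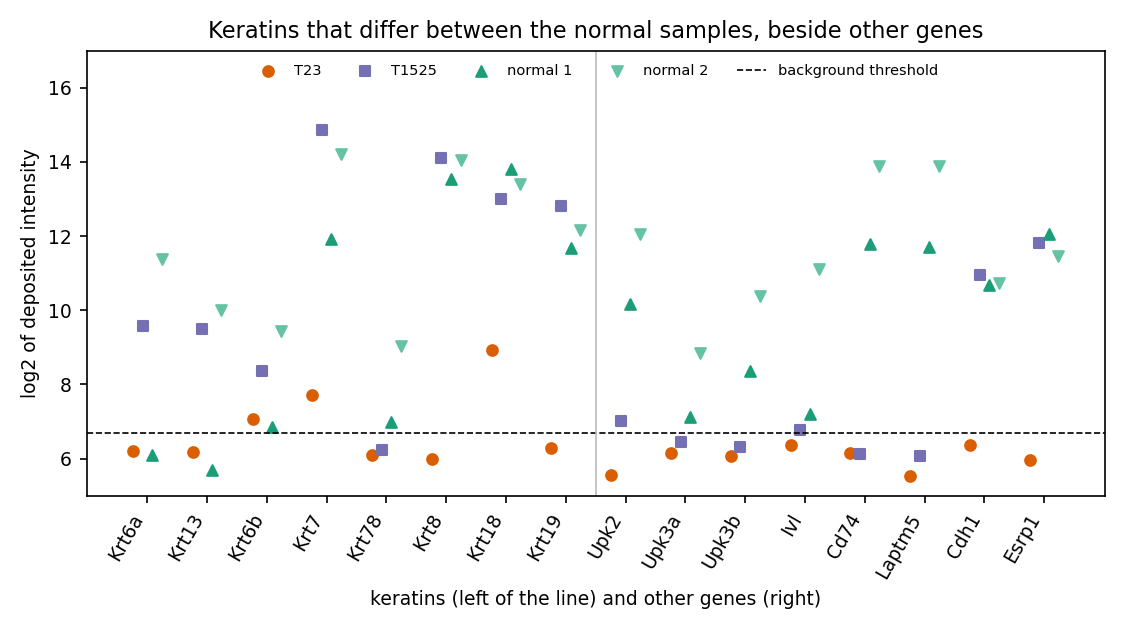
Levels of 8 keratins (left of the grey line) and 8 other genes (right of it) as log2 of deposited intensity (vertical axis), with 1 point for each array and the dashed line at the background threshold of 6.69. Krt6a, Krt13, Krt6b, Krt7 and Krt78 stand higher in normal 2 than in normal 1, as do Upk2, Upk3a, Upk3b, Ivl, Cd74 and Laptm5, whereas Krt8, Krt18, Krt19, Cdh1 and Esrp1 lie within 0.58 of each other in the normal pair.

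Related gene lists are counted beside the same shares of all genes, 15.5% higher and 14.9% lower in T23 and 16.5% higher and 14.8% lower in T1525. Of 15 genes listed as keratin associated proteins and epithelial regulators, 13 were tested: 6 were lower and 1 (Cdh3, P-cadherin) higher in T23, and 1 (Trp63) was lower and 3 (Elf3, Klf4 and Klf5) higher in T1525. Cdh1, E-cadherin, read 6.37 in T23 and 10.96 in T1525, against 10.67 and 10.74 in normal prostate, at least 16.15-fold lower in T23 (limma adjusted p = 0.0056). Cdh3 read 8.49 in T23 and 6.98 in T1525, against 7.28 and 7.10 in normal prostate, 2.47-fold higher in T23 (limma adjusted p = 0.0277). Esrp1, an epithelial splicing regulator, was at least 33.5-fold lower in T23 (limma adjusted p = 0.0061) and differed by 0.05 in T1525 (adjusted p = 0.922). Grhl2, a transcription factor of epithelial junction genes, was at least 14.85-fold lower in T23 (limma adjusted p = 0.0056) and differed by 0.07 in T1525 (adjusted p = 0.82). Klf4, a transcription factor of epithelial differentiation, read 9.07 in T23 and 11.51 in T1525, against 7.74 and 8.57 in normal prostate. It was 10.2-fold higher in T1525 (limma adjusted p = 0.0147).

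The hemidesmosome, which anchors keratin to the basement membrane, was lower in T23 for 6 of 8 tested genes, and lower for 3 and higher for 2 in T1525. Itgb4, the integrin chain that binds the keratin linker plectin, read 6.59 in T23 and 11.11 in T1525, against 10.35 and 11.19 in normal prostate, at least 16.9-fold lower in T23 (limma adjusted p = 0.0111). Lamb3, a chain of the basement membrane laminin, read 5.95 in T23 and 12.63 in T1525, against 10.14 and 10.80 in normal prostate. It was at least 13.7-fold lower in T23 (limma adjusted p = 0.0081), and T1525 stood 4.46-fold above normal prostate (adjusted p = 0.0243). Col17a1, the transmembrane collagen of basal cells, fell in both lines, 6.04-fold in T23 (limma adjusted p = 0.0428) and 7.80-fold in T1525 (adjusted p = 0.0322). Leaving out normal 1 gave 9.23-fold in T23 and 11.9-fold in T1525, and leaving out normal 2 gave 3.95-fold in T23 and 5.11-fold in T1525. Plec, plectin, did not pass in either line (limma adjusted p = 0.135 in T23 and 0.798 in T1525).

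Among 9 tested genes of the cornified envelope, 1 was lower in T23 and 2 higher in T1525, shares near those of all genes. Lor, loricrin, the main envelope protein of epidermis, read 6.56 in T23 and 12.87 in T1525, against 7.78 and 8.01 in normal prostate. T23 was at least 2.30-fold lower (limma adjusted p = 0.0284). T1525 stood 31.5-fold above normal prostate, with a log2 difference of 4.98 (SE 0.24, limma adjusted p = 0.00505). Tgm3, the transglutaminase that crosslinks such proteins, the other call in T1525, was kept through T1525 alone, at least 2.03-fold higher there than in normal prostate.

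Of the intermediate filament genes that are not keratins, 9 were tested: 4 were higher and 3 lower in T23, and 3 were higher and 3 lower in T1525. Vim, vimentin of mesenchymal and many cultured cells, read 15.11 in T23 and 13.43 in T1525, against 12.38 and 13.59 in normal prostate (limma adjusted p = 0.0626 in T23 and 0.575 in T1525). Lmna, the A-type lamin of the nuclear envelope, read 14.29 in T23 and 12.36 in T1525, against 12.15 and 12.32 in normal prostate, 4.16-fold higher in T23 (limma adjusted p = 0.0133). Lmnb1, a B-type lamin, rose in both lines, 3.02-fold in T23 (limma adjusted p = 0.0304) and 9.05-fold in T1525 (adjusted p = 0.009375). Des, desmin of muscle, was at least 18.9-fold lower in each line, and Synm, its partner synemin, 47.1-fold lower in T23 and 42.1-fold lower in T1525 (limma adjusted p = 0.0064 and 0.00593). Des, Synm and the neurofilament gene Nefh were the 3 lower genes in both lines. The normal samples were tissue with muscle: the 6 smooth muscle markers were above background in both, with summed intensities of 27770 in T23 and 411 in T1525, against 130500 and 125600 in normal prostate. The T23 sum was mostly Acta2, smooth muscle actin, at 14.72.

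By the marker list of luminal epithelium (Krt7, Krt8, Krt18 and Krt19), T23 had 2 of 4 genes above background with a summed intensity of 844, and T1525 had 4 with 62970, against 33610 and 51510 in normal prostate. By that of basal epithelium (Krt5, Krt14, Krt15 and Trp63), T23 had 1 and T1525 had 2 above background, against 4 in each normal sample. The basal sums were 484 in T23 and 13910 in T1525, against 10450 and 22420 in normal prostate. T1525 thus lay between the normal samples by the sum, most of it Krt14. By gene, 3 of the 4 basal markers (Krt5, Krt15 and Trp63) were called lower in T1525, beside 14.8% of all genes. In T23 all 4 were called lower, beside 14.9%. Of 2 kept mesothelium markers, Msln read 11.70 in T23 and 7.99 in T1525, against 7.14 and 7.42 in normal prostate, while Upk3b, also a urothelial marker, read 6.06 in T23 and 6.31 in T1525, against 8.35 and 10.38 in normal prostate.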

How the data were processed

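Each of 4 RNA samples was hybridised to 1 Illumina bead array. The authors' deposited intensity values, linear and normalized between arrays, were used; per the submitters' processing notes BeadStudio was used, with neither version nor normalization method given. The 4 columns hold nearly the same sorted values (median gap 0.183%, largest 3.73%). A deposited table of unnormalized signals and detection p-values was left out: its 8 value columns carry slide positions that no label ties to a sample, so slides were not taken as a block.

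The log2 intensity was taken. The design assumed this scale, and the background threshold of 6.69 was the mode of the log2 values (6.12, density bandwidth 0.05) plus the distance to the upper 0.01 tail of a Gaussian whose SD (0.247) came from the values left of the mode. Of 24613 probes, 15767 lay above it on at least 1 array and were tested, and the kept probe with the highest mean stood for its gene (10903 genes). Gene symbols are those of the platform annotation, in which 20984 probes had 1 symbol; the 57 member genes were all found by Entrez ID in RefSeq GRCm38.p6 with the same symbol.

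Tests were two-sided limma 3.58.1 fits in R 4.3.3 with Benjamini-Hochberg adjustment over all kept probes and a call at 0.05. Both lines together were set against the normal pair (2 residual and 2.07 prior degrees of freedom), and each line alone in a fit of 3 groups (1 residual and 2.95 prior degrees of freedom). T23 minus T1525, 1 array each, was not tested. Where a line or both normal samples lay at or below background, the fold is given as at least the value against the threshold, and its p belongs to the fitted difference. The fit of both lines together was run on simulated data in which both lines were shifted by the same amount. Those data are unlike genes on which the lines split, and no result here rests on that run. The fits of single lines were not simulated. Plots used Python 3.11.15 with matplotlib 3.10.9. The members, gene lists and rules for naming genes were chosen with earlier results of these data known. Named were the markers Krt5, Krt7, Krt8 and Krt14, every called member, every member 4-fold apart between the lines, every measured desmosome gene, every keratin above background on all arrays, and called or most changed genes of the related lists. Krt1, Krt20, Krt28, Krt78, Krt79, Krt82 and Krt88, and the cell type markers, were added after their values were seen. The number of arrays limits the precision.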

Additional observations from a re-analysis of the deposited data

Results flagged for a closer look

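For 10 of the 33 genes T23 lay below both normal samples and T1525 above both, with normal prostate above background, beside 7.03% of all genes. The 1 array of T23 and the 1 array of T1525 thus stood on opposite sides of normal prostate. This difference between the lines rests on 1 array each and was not tested. T23 minus T1525 was -8.14 for Krt8, -7.76 for Krt14, -7.14 for Krt7, -6.54 for Krt19 and -4.43 for Pkp1 on the log2 scale. It was -3.04 for Pkp2, -3.04 for Pkp3, -2.57 for Dsg2, -2.51 for Jup and -2.24 for Evpl. A dimmer Dsg2 probe, above background in T1525 alone, read 6.39 in T23, above both normal samples (6.16 and 6.23), and 7.0 in T1525. For Krt8, Krt14, Krt19, Pkp1 and Evpl the T23 value was not above background. T1525 stood above the higher normal sample by little for Krt8 (14.12 against 14.06) and Jup (11.27 against 11.22), and by more for Pkp1 (10.61 against 8.55).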

How the results depend on the processing

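There were 14 alternatives, of which 4 left out 1 array. The count of members lower in T23 (15 as reported) lay between 12 and 17 in 9 of 10 alternatives. It was 0 when values under the threshold were raised to it, beside 2.30% of all genes. There the count lower in T1525 was 0 too, against 4, beside 2.96% of all genes. T23 had 1 member higher with limma's trend (Krt88), and T1525 had 3 with the threshold passed on at least 2 arrays, against 7. In the class comparison 1 member was lower, against 2, with no filter on dim probes (Krt5) and with values raised to the threshold (Krt15). Leaving out 1 line turned the class comparison into the fit of the other line, so its calls repeat those of that line. Leaving out normal 1 or normal 2 left 1 normal array, and no class call held there, for members or for any other gene. The count of members 4-fold lower in T23 than in T1525 (16) lay between 13 and 16. Without a normal sample the fits of single lines have no residual degree of freedom, so only values were computed.

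The class difference of 16 of 33 members, none called with all arrays, took either sign when 1 array was left out. With 1 line left out, that value is the other line's difference from normal prostate. The ranges were -0.12 to 0.43 for Krt20, -7.82 to 0.32 for Krt8, -5.35 to 1.79 for Krt7, -6.51 to 1.25 for Krt14, -5.63 to 0.91 for Krt19, -2.16 to 2.14 for Krt13, -1.58 to 0.37 for Krt4, -3.49 to 1.77 for Krt6a, -1.73 to 0.86 for Krt6b, -2.39 to 0.12 for Jup, -1.63 to 0.61 for Evpl, -1.64 to 1.39 for Pkp2, -2.40 to 0.64 for Pkp3, -0.49 to 1.53 for Krt16, -1.15 to 1.42 for Dsg2 and -2.07 to 2.36 for Pkp1. With median scaling and cyclic loess the class difference was -0.11 and -0.24 for Dsg2, -0.09 and -0.19 for Pkp1 and -0.09 and -0.06 for Krt77. With the dimmer probe of a gene it was 0.11 for Pkp2 and 0.11 for Pkp4, and Dsg2 was 0.20 in T23 and Pkp4 0.38 in T1525. No paired analysis was possible because the groups share fewer than 2 replicate numbers. Except where an alternative's construction is named, the cause was not tested.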
